A study of Homo sapiens with 31 samples.

Results

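The genes of the proteasome and of its assembly factors were followed across 8 treatments of H460 cells, a human non-small-cell lung cancer line. They were picked by gene symbol, with earlier results of these data known. Every row of the expression table whose symbol begins with PSMA, PSMB, PSMC, PSMD, PSME, PSMF or PSMG and a number was a member. This gave 49 of the 74834 rows. Of these, 44 are subunits, activators, inhibitors or assembly chaperones of the proteasome, and 5 carry such a name without being a proteasome gene (4 antisense transcripts and PSMC3IP). A mean of at least 10 normalized reads over the 31 libraries was needed for a test. It was passed by 47 members, of which 42 are proteasome genes. PSMA8 and PSMB11, the testis and thymus forms of core subunits, averaged 0.09 and 0.331 normalized reads and were not tested.

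Poly(A) RNA was sequenced after 6 h of treatment, from 2 pooled culture wells per sample. B87 stands for 1 µM of BAY87-2243, which inhibits respiratory complex I (4 libraries). DMKG is dimethyl alpha-ketoglutarate at 5 mM, a cell-permeable form of a citric acid cycle intermediate (4 libraries). B87 + DMKG joins both (4 libraries). Nutlin-3 was given at 30 µM (3 libraries) and Rita at 50 µM (4 libraries). Both compounds are known to block the restraint of p53 by MDM2. B87 + DMKG + Nutlin-3 and B87 + DMKG + Rita add either compound to the pair (4 libraries each). Control cells were untreated (4 libraries). All groups are of the same cell line, and a vehicle control was not analysed here. The design sets these treatments against each other for their transcriptional effect in dying cells. The labels do not say whether libraries of a group came from separate cultures or days, so p-values measure only the spread between these samples.

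The proteasome degrades proteins tagged with ubiquitin. Its core particle is a barrel of stacked rings, with alpha subunits (PSMA genes) at the ends and beta subunits (PSMB genes) inside. PSMB5, PSMB6 and PSMB7 carry the proteolytic sites. After interferon signals, PSMB8, PSMB9 and PSMB10 take their places and give the immunoproteasome, which favours peptides for antigen presentation. The regulatory particle caps the barrel. Its ATPase ring (PSMC genes) unfolds substrates, and its non-ATPase subunits (PSMD genes) bind and trim ubiquitin. PSMD5, PSMD9 and PSMD10 are chaperones of the regulatory particle, PSMG1 to PSMG4 are chaperones of the core, PSME1, PSME3 and PSME4 are alternative caps, and PSMF1 binds and inhibits the core in vitro. In mammalian cells the transcription factor NFE2L1 raises many of these genes together when proteasome activity is low.

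Values are the authors' normalized read counts, and fold changes are differences of log2(value + 1) with their standard error (SE). A gene is called higher or lower at an adjusted p under 0.05 (limma, Benjamini-Hochberg over all 16259 rows tested). The libraries held 33.4 M to 82.5 M recovered reads (M, 1e6 reads), with a median of 63.1 M. Log2 values of libraries of 1 group correlated at r = 0.964 to 0.993. Libraries 1 and 2 of DMKG stood somewhat apart from 3 and 4, as did library 1 of Nutlin-3, library 4 of Rita and library 4 of B87 from the rest of their groups. The keratins KRT8, KRT18 and KRT19 averaged 102320, 73205 and 115190 normalized reads, while EPCAM lay at 28.0 to 85.0 and CDH1 at 0 to 8.21. SFTPB was at 0 throughout. Of the leukocyte markers PTPRC and CD3E stayed at or under 7.8 normalized reads. CD14, at 47 to 273, was lower in B87 + DMKG than in Control (log2 fold change -1.69). In the same comparison, where 30.8% of all rows were lower, 2 of 4 tested epithelial markers and 2 of 3 fibroblast markers fell, and the 1 tested endothelial marker rose by 1.95. The part of these shifts in the results was not tested. The share of mitochondrial transcripts was 2.24 to 7.51% in B87 + DMKG, 2.42, 4.33 and 5.39% in Nutlin-3 libraries 1 to 3, 2.69 to 2.93% in Rita libraries 1 to 3 and 4.76% in library 4, and 2.47 to 3.67% in the combinations, against 1.49 to 2.15% in Control. Its part in the results was not tested. In bulk RNA, fewer cells and less RNA per cell cannot be told apart.

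In Control cells the proteasome genes differed widely in reads per kb of annotated exon. The length joins the exons of all coding transcripts of a gene and is not that of the transcript expressed, so ranks depend partly on annotation. PSMB2 and PSMB3 averaged 16782 and 14370 normalized reads, but their exons cover 4843 and 773 bases. PSMB4, a beta subunit without a proteolytic site, had the highest value at 24790 normalized reads per kb of exon, followed by PSMB6 at 20240, PSMB3 at 18590 and PSMB5 at 17260. The immunoproteasome genes PSMB8, PSMB9 and PSMB10 stood at 1500, 1370 and 1905 per kb, well under their constitutive counterparts. PSMG4 and PSME4 had the lowest values of the tested genes at 216 and 236 per kb. The value of PSMG4 rests on 5816 exon bases of a GENCODE gene of 72 kb, while its row spans 33.1 kb, so its rank is uncertain.

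B87 alone moved none of the 42 proteasome genes. No gene passed the limma test in either direction, where 0.0308% of all rows were called higher and 0.0123% lower, and edgeR and DESeq2 on the recovered reads also called 0. An unadjusted p under 0.05 was reached by 2 genes. All log2 fold changes lay between -0.11 and 0.15.

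DMKG alone moved few. It raised 5 of 42 genes and lowered 4, with 19.6% of all rows higher and 21.8% lower. The largest fall was that of PSMG3, which pairs with PSMG4 to guide the alpha ring. PSMG3 had 3417, 3251, 2899 and 2629 normalized reads in DMKG, against 4420, 5252, 4582 and 4837 in Control. All DMKG libraries lay under all Control libraries (log2 fold change -0.65 ± 0.12 SE, adjusted p = 3.87e-05). PSMD12 fell by 0.29 ± 0.08 (adjusted p = 0.00408) and PSMD7, the inactive partner of the deubiquitinase PSMD14, rose by 0.28 ± 0.06 (adjusted p = 0.000682). The activator PSME1 rose by 0.22 and PSME3 fell by 0.23. Of the 9 calls, those of PSMG3 and PSMD7 held under every alternative tried, and the other 7 were lost under at least 1 (a minimum size of change aside). The split between directions depended on scaling: quantile normalization gave 3 genes higher and 10 lower, and equal library totals gave 1 and 13. All rows split 3232 and 3457 with quantile normalization, and 2089 and 4514 with equal totals. Without DMKG libraries 3 and 4 only 5 genes were called, and without Control library 1 only 4.

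B87 and DMKG together lowered the transcripts of most proteasome genes. Of 42 genes, 26 fell and 6 rose, against 30.8% of all rows lower and 30.2% higher. The median log2 fold change of the proteasome genes was -0.27, where the median of all rows was 0.01. All 4 tested alpha ring genes fell, as did 3 of 4 beta genes without a proteolytic site, 9 of 11 non-ATPase genes of the regulatory particle and 2 of 4 core chaperones. Of the ATPase ring, 3 of 6 genes fell and 1 rose, with a median of -0.08.

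**Figure D1:**
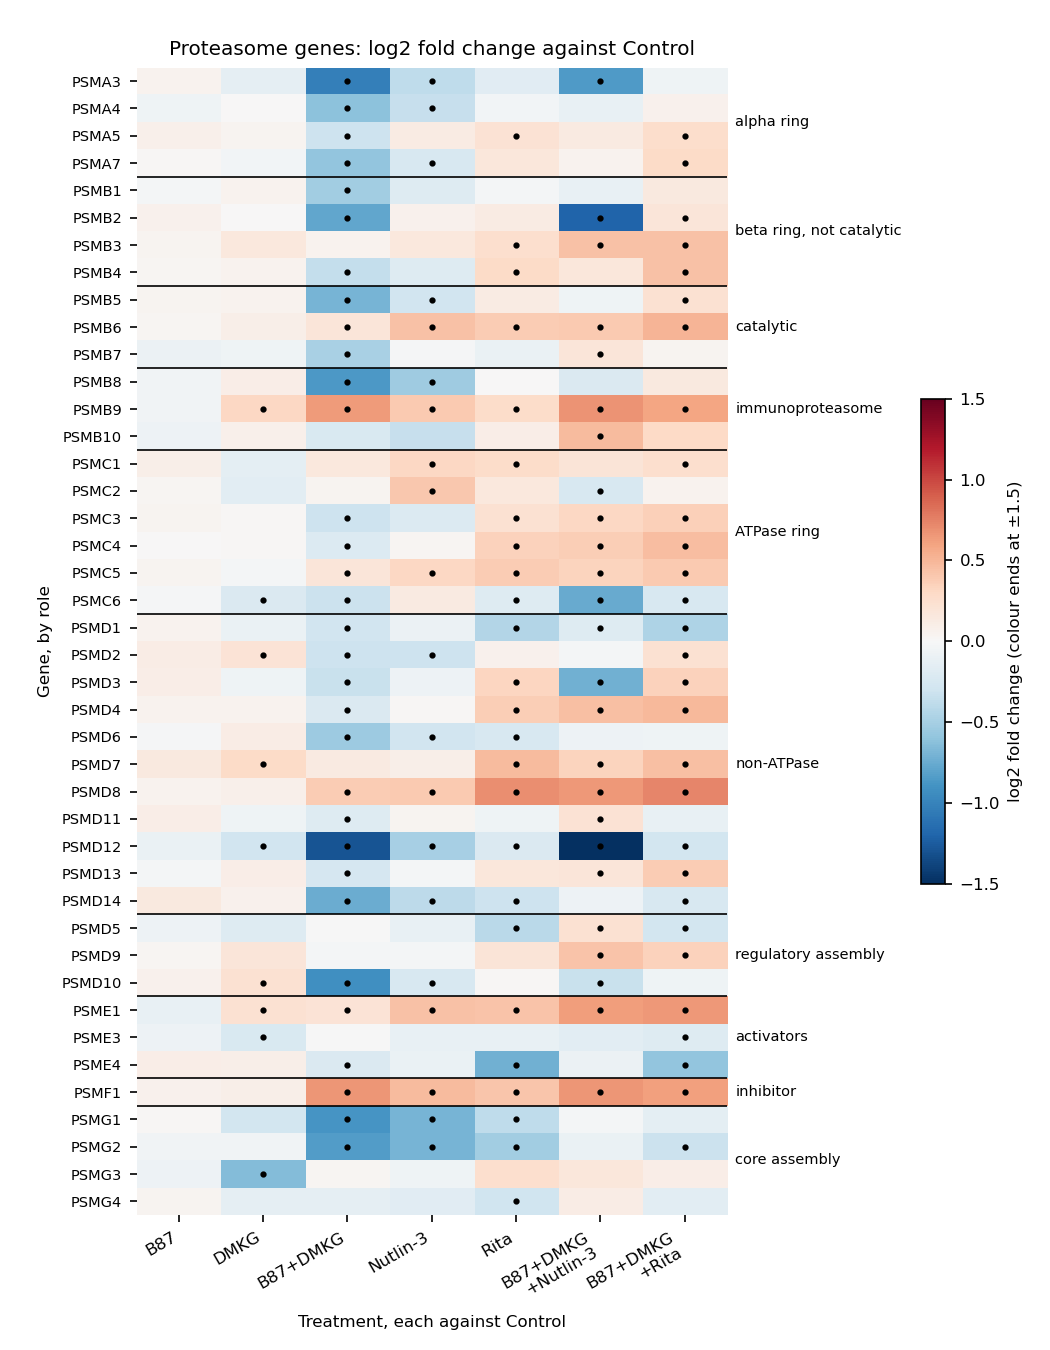
Log2 fold change against Control (colour, blue for lower and red for higher, ending at ±1.5) of the 42 tested proteasome genes (rows, by role) in the 7 treatments (columns), with dots on called values. B87 + DMKG holds 26 lower genes, the most of any column, and the B87 column holds no called value.

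PSMD12 fell furthest. It is a scaffold subunit of the lid, the part of the regulatory particle that removes ubiquitin chains. PSMD12 had 4176, 3686, 3879 and 3402 normalized reads in B87 + DMKG, against 9361, 8617, 9939 and 9225 in Control. The 2 groups did not come near each other (log2 fold change -1.30 ± 0.08 SE, adjusted p = 2.17e-14). The alpha subunit PSMA3 followed, with 6507, 5868, 6374 and 5506 normalized reads in B87 + DMKG and 11330, 12682, 13119 and 12219 in Control (log2 fold change -1.03 ± 0.08). PSMD10, known as gankyrin, averaged 2177 ± 258 normalized reads in B87 + DMKG and 4117 ± 325 in Control (SD, n = 4 each), and its log2 fold change was -0.92 ± 0.08. The paired core chaperones fell alike: PSMG1 by 0.88 ± 0.13 and PSMG2 by 0.83 ± 0.09. PSMB2 fell by 0.78 ± 0.07 and the deubiquitinase PSMD14 by 0.74 ± 0.07.

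A few genes rose in B87 + DMKG. PSMF1, the inhibitor, averaged 10592 ± 955 normalized reads in B87 + DMKG and 6656 ± 214 in Control (SD, n = 4 each), with 0.67 ± 0.07 as its log2 fold change (adjusted p = 2.02e-09). The lid subunit PSMD8 rose by 0.38 ± 0.07, and the immunoproteasome subunit PSMB9 by 0.64 ± 0.10. PSMB6, PSMC5 and PSME1 passed with 0.18, 0.18 and 0.21, and PSMD4 and PSME4 with -0.22 each. Each of these 5 calls was lost when single libraries were left out, among them Control 3 or 4 and B87 + DMKG 2 for PSMB6, PSMC5 and PSME1, and Control 2 and B87 + DMKG 1 for PSMD4 and PSME4.

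The fall in B87 + DMKG was larger than the sum of the single treatments. The interaction term of the fit (limma) was lower than 0 for 26 of 42 genes and higher for 5, where 24.1% of all rows were lower and 24.6% higher. Its median was -0.32 (all rows 0.02). PSMD10 showed the largest term at -1.21 ± 0.11 (adjusted p = 5.65e-10): it rose by 0.23 in DMKG alone, stood at 0.06 in B87 alone, and fell by 0.92 in both. PSMD14 followed with -0.95 ± 0.10, PSMA3 with -0.95 ± 0.11, PSMB8 with -0.91 ± 0.16 and PSMD12 with -0.91 ± 0.11. PSMG3 went the other way with 0.76 ± 0.16 (adjusted p = 0.000326). Its 3954 to 5908 normalized reads in B87 + DMKG overlapped Control, while DMKG alone lay under both. Quantile normalization left 7 terms higher and 19 lower (3780 and 4024 of all rows), and equal library totals left 9 and 17 (4769 and 3017).

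Nutlin-3 alone gave a mixed pattern. It raised 8 of 42 genes and lowered 12, with 18.5% of all rows higher and 20.7% lower. Quantile normalization gave 7 and 17 (2981 and 3391 of all rows), and equal totals 7 and 20 (2052 and 4667). The core chaperones PSMG1 and PSMG2 fell furthest, PSMG1 by 0.70 ± 0.14 (adjusted p = 0.000151) and PSMG2 by 0.69 ± 0.09 (adjusted p = 7.46e-07), while PSMG3 and PSMG4 gave -0.068 and -0.165 and were not called. PSMD12 fell by 0.50 ± 0.09 and PSMD14 by 0.39 ± 0.08. Among the genes that rose were PSMF1 by 0.48 ± 0.08, PSME1 by 0.45 ± 0.10 and PSMC2, a subunit of the ATPase ring, by 0.41 ± 0.10. Library 1 stood apart for several of them: PSMC2 had 14033 normalized reads there and 18807 and 18927 in the other Nutlin-3 libraries. Without that library 22 genes were called.

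Rita alone raised 15 of 42 genes and lowered 10, with 25.8% of all rows higher and 26.3% lower. The median was 0.12, against 0.03 for all rows. Quantile normalization turned the split to 10 and 14 (4153 and 4206 of all rows), and equal totals to 7 and 16 (2581 and 5784). The genes that rose most were PSMD8 by 0.69 ± 0.07 (adjusted p = 7.1e-10), PSMD7 by 0.48 ± 0.06, PSME1 by 0.42 ± 0.09 and PSMF1 by 0.42 ± 0.07. PSME4, a cap found mainly in the nucleus, fell furthest. It had 1152, 912, 1059 and 951 normalized reads in Rita, against 1597, 1754, 1753 and 1601 in Control (log2 fold change -0.72 ± 0.08, adjusted p = 1.86e-08). The chaperone PSMG2 fell by 0.52 ± 0.09, PSMD1, a large base scaffold, by 0.44 ± 0.07 and the chaperone PSMD5 by 0.40 ± 0.09. PSMG1 fell by 0.38 ± 0.13 (adjusted p = 0.0139), a call that was lost without Rita library 4.

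Adding Nutlin-3 or Rita to B87 + DMKG raised most of the genes that the pair had lowered. Against B87 + DMKG, the Rita combination held 30 genes higher and 4 lower (33.1% of all rows higher, 34.2% lower), with a median of 0.50 where all rows had 0.00. Quantile normalization gave 27 and 6 (5870 and 5063 of all rows), and equal totals 23 and 10 (3518 and 7244). The Nutlin-3 combination held 28 higher and 5 lower (26.5% of all rows higher, 32.3% lower), with a median of 0.40 where all rows had -0.05. For it, quantile normalization gave 26 and 6 (5489 and 4312 of all rows), with a median of 0.306 where all rows had 0.083. Equal totals gave 22 and 7 (3037 and 6496). All 4 alpha ring genes rose with Rita and 3 of 4 with Nutlin-3. The 3 proteolytic subunits PSMB5, PSMB6 and PSMB7 rose with either compound, although both calls of PSMB6 (0.21 with Nutlin-3, 0.33 with Rita) were lost with quantile normalization and with equal totals, and that with Nutlin-3 also without B87 + DMKG library 1 or Nutlin-3 combination library 1 or 3. With Nutlin-3 the largest rises were those of PSMG1 at 0.86 ± 0.13, PSMG2 at 0.73 ± 0.09, PSMB10 at 0.70 ± 0.15, PSMD4 at 0.68 ± 0.08 and PSMB7 at 0.67 ± 0.08. With Rita they were those of PSMD12, PSMB8, PSMB2, PSMA3 and PSMB5, at 0.92 to 1.02. The genes lower with Rita than in B87 + DMKG were PSME4 at -0.38 ± 0.08, PSMD5 at -0.27 ± 0.09, PSME3 at -0.20 and PSMD1 at -0.17, and the calls of PSME3 and PSMD1 were lost without B87 + DMKG library 1 or 2 or Rita combination library 1 or 3 (that of PSME3 also without library 4). In the same comparisons all 4 tested epithelial markers rose, with a median of 0.61 with Nutlin-3 and 0.78 with Rita, the endothelial marker fell by 1.83 and 2.41, and CD14 rose by 1.85 and 1.58. The part of these shifts was not tested. These comparisons share their B87 + DMKG libraries, which the comparison of that pair with Control also uses, so a high or low value there moves all of them.

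**Figure D2:**
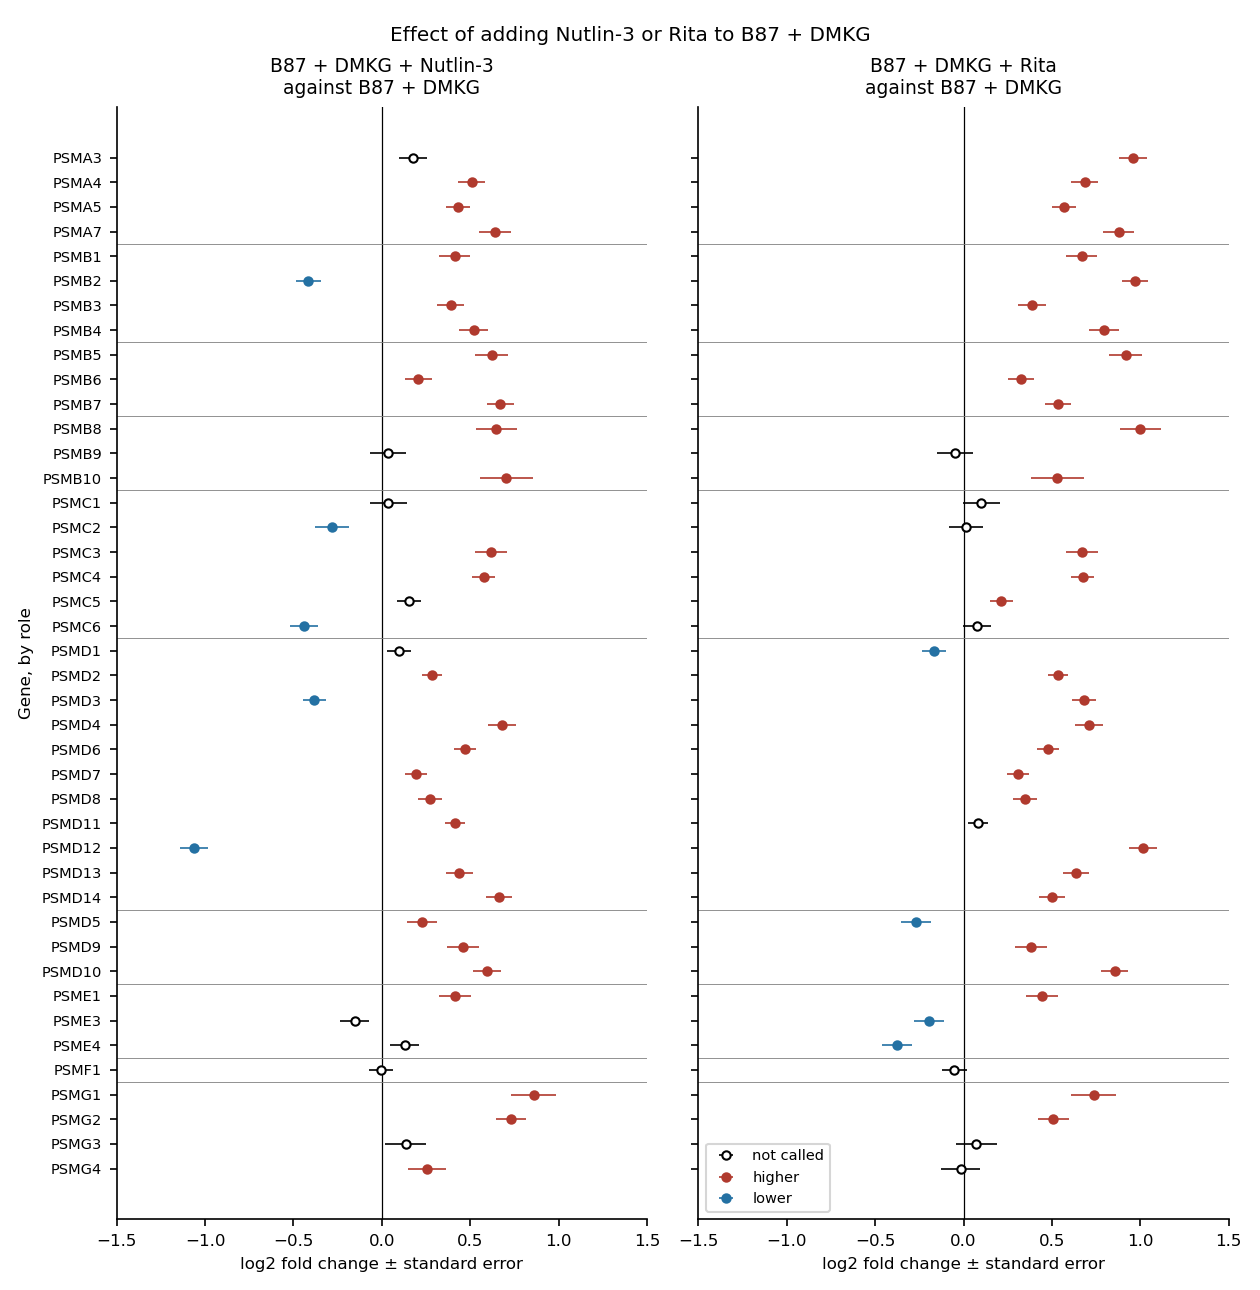
Log2 fold change against B87 + DMKG of each tested proteasome gene (rows, by role) with Nutlin-3 added (left) and with Rita added (right), with bars of 1 SE and colour for called values. Both panels share the B87 + DMKG libraries. PSMD12, PSMB2 and PSMD3 lie left of 0 with Nutlin-3 and right of 0 with Rita.

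The 2 compounds moved a few genes in opposite directions from B87 + DMKG, and PSMD12 showed it most. PSMD12 had 2000, 1751, 1720 and 1776 normalized reads in B87 + DMKG + Nutlin-3, against 4176, 3686, 3879 and 3402 in B87 + DMKG. It was lowered further, by 1.06 ± 0.08 (adjusted p = 1.85e-12). With Rita it had 7564, 7542, 7621 and 7835 normalized reads, a log2 fold change of 1.02 ± 0.08 over B87 + DMKG (adjusted p = 2.23e-12). That brought it near Control, though still lower by a log2 fold change of -0.28 ± 0.08. In B87 + DMKG + Nutlin-3 the fold change against Control reached -2.36 ± 0.08 (adjusted p = 2.58e-21), the lowest of any proteasome gene in the 13 comparisons. None of the libraries left out, scalings or tools tried changed these calls.

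PSMB2 behaved likewise. It had 7594, 7036, 7876 and 6764 normalized reads in B87 + DMKG + Nutlin-3, against 9872, 10993, 10027 and 8284 in B87 + DMKG (log2 fold change -0.42 ± 0.07, adjusted p = 1.15e-05). In B87 + DMKG + Rita it had 18882, 18905, 18486 and 20105 (log2 fold change 0.97 ± 0.07 over B87 + DMKG). The lid subunit PSMD3 fell by 0.38 ± 0.07 with Nutlin-3 and rose by 0.68 ± 0.07 with Rita. The ATPase PSMC6 fell by 0.44 ± 0.08 with Nutlin-3 and gave 0.08 ± 0.08 with Rita (adjusted p = 0.416). PSMC2 fell by 0.28 ± 0.10 with Nutlin-3, a call lost without B87 + DMKG library 2. PSMA3 rose by 0.96 ± 0.08 with Rita, while with Nutlin-3 its 0.18 ± 0.08 missed the threshold (adjusted p = 0.0574).

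**Figure D3:**
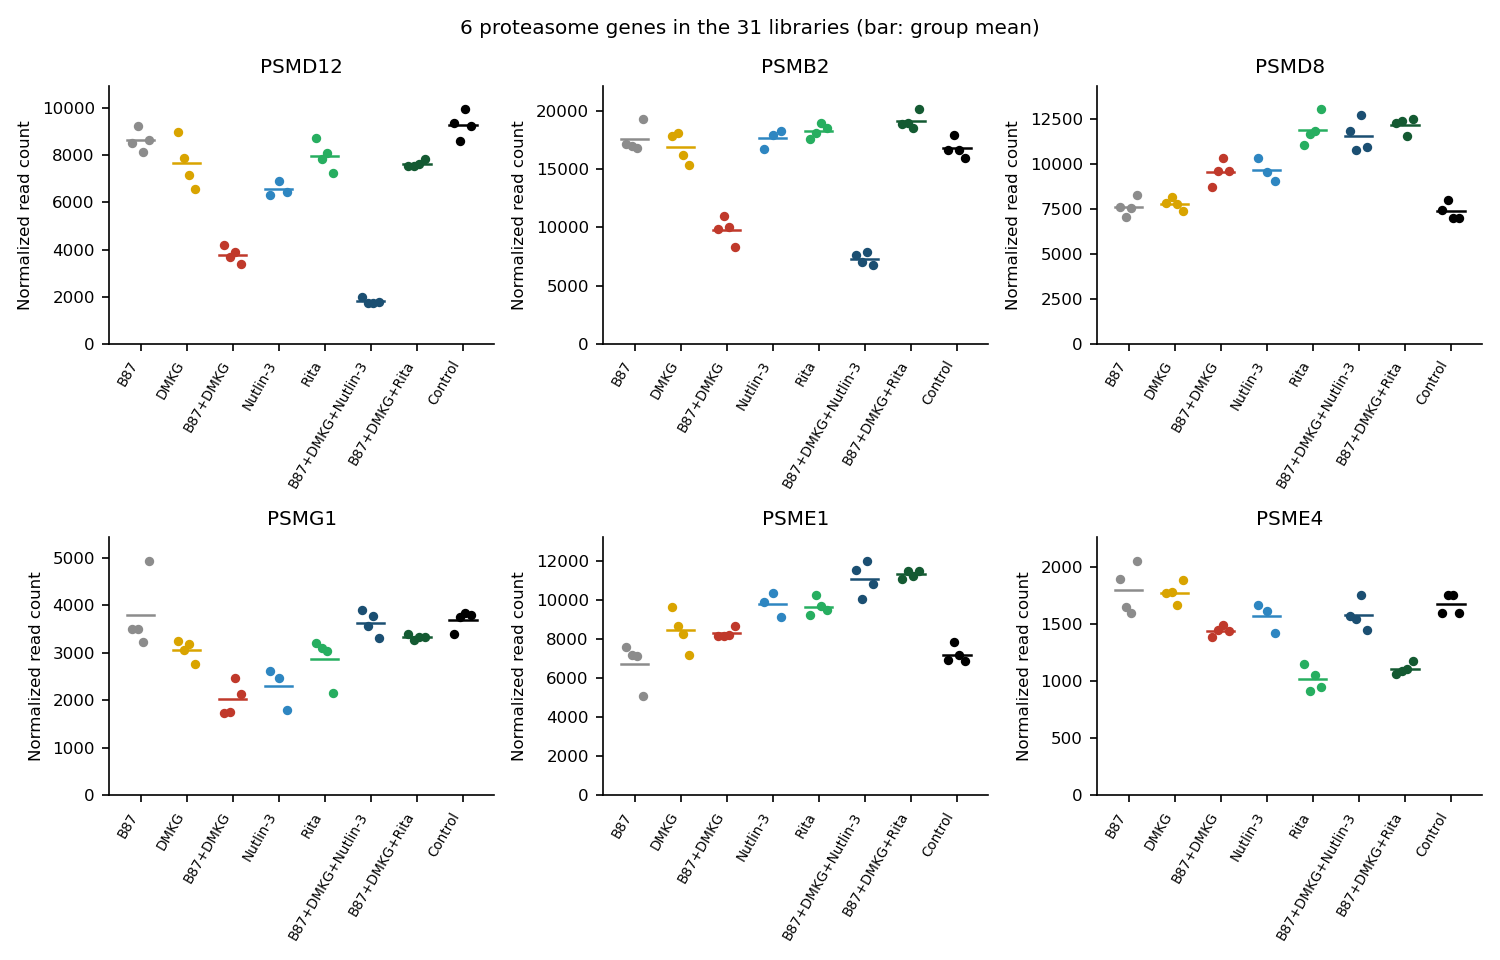
Normalized reads in every library (points) by treatment, with bars at group means, for PSMD12, PSMB2, PSMD8, PSMG1, PSME1 and PSME4. PSMD12 and PSMB2 are lowest in B87 + DMKG + Nutlin-3, whereas every library of both combinations lies above Control for PSMD8 and PSME1.

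Set directly against each other, the Nutlin-3 combination held 14 genes lower than the Rita combination and 6 higher (24.5% and 23.8% of all rows). With quantile normalization the split was 8 higher and 5 lower (4365 and 3596 of all rows), and with equal totals 8 and 6 (4691 and 3275). Normalized totals were 59.2 M to 63.7 M in the Nutlin-3 combination and 64.8 M to 67.6 M in the Rita combination. PSMD12 was lower by a log2 fold change of -2.08 ± 0.08 (adjusted p = 9.14e-20), PSMB2 by -1.39 ± 0.07, PSMD3 by -1.06 ± 0.07, PSMA3 by -0.78 ± 0.08 and PSMC6 by -0.52 ± 0.08. Higher with Nutlin-3 were PSME4 at 0.51 ± 0.08, PSMD5 at 0.50 ± 0.09, PSMD11 at 0.33 ± 0.06 and PSMD1 at 0.27 ± 0.07. PSME4 had 1447 to 1756 normalized reads in the Nutlin-3 combination and 1063 to 1176 in the Rita combination, with no overlap.

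The promoters of PSMD12 and PSMB2, the genes that differed most between the combinations, are given here with those of PSMB5, which fell in B87 + DMKG and rose over it with either compound, and PSMD8, which rose in both combinations. Each sequence is the 250 bases before the annotated start in RefSeq (GRCh38.p14), read 5′ to 3′ on the gene's strand. Capitals mark matches on either strand to the antioxidant response element core TGACNNNGC (the kind of element NFE2L1 binds), the CCAAT box CCAAT (bound by NF-Y) and the GC box GGGCGG. The PSMD12 window is chr17:67366578-67366827 on the minus strand, with an element core 165 to 157 bases before the start and a GC box 138 to 133 bases before it.
PSMD12: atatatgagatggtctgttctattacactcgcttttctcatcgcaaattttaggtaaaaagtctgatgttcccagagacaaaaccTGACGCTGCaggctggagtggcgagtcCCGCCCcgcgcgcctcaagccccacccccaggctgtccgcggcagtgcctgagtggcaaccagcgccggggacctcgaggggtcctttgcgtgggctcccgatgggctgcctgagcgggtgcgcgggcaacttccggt
PSMB2, chr1:35641527-35641776, minus strand: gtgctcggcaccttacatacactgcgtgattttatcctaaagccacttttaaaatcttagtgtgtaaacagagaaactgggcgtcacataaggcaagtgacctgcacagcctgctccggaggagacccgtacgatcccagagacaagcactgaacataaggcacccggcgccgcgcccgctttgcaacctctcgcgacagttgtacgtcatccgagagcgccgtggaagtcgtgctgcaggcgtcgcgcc
PSMB5, chr14:23035221-23035470, minus strand: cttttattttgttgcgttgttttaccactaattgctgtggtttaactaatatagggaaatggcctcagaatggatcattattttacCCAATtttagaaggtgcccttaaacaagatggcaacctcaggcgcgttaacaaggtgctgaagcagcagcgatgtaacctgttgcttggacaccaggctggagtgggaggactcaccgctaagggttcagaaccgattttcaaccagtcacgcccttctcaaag
PSMD8, chr19:38374321-38374570, plus strand: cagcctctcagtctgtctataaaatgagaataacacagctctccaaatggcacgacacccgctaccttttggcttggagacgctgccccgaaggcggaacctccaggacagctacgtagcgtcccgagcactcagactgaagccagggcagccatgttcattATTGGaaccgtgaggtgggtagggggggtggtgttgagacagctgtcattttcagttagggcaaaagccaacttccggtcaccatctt
The PSMB2 window holds none of these letters. PSMB5 holds a CCAAT box 164 to 160 bases before the start and PSMD8 one 88 to 84 bases before it.

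Over the 36 tested proteasome genes with a RefSeq promoter (44 windows of the 250 bases before a start), the element core lay in 12 windows, or 27.3%, where 10.9% of all 35116 windows and 11.7% of the 14281 windows of tested symbols held it. The 12 genes were PSMA4, PSMB3, PSMB9, PSMC5, PSMD12, PSMD3, PSMD5, PSMD9, PSME1, PSME4, PSMG1 and PSMG2. They include genes that fell, rose or did not pass in B87 + DMKG. CCAAT lay in 38.6% of the proteasome windows and 32% of all windows. GGGCGG lay in 59.1% and 42.6%, with 62.2% among tested symbols. A match of letters is not a bound site.

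Against Control, the combinations left a mixed set. B87 + DMKG + Nutlin-3 held 17 genes higher and 8 lower (28.3% and 29.7% of all rows), and B87 + DMKG + Rita held 21 higher and 8 lower (29.4% and 30.7%). Quantile normalization gave 15 and 11 with Nutlin-3 and 12 and 8 with Rita. Equal totals gave 11 and 18 with Nutlin-3 and 10 and 17 with Rita, so the majority of higher genes is not kept there. All rows shifted too under equal totals, to 3039 higher and 5947 lower with Nutlin-3 and 2719 and 7032 with Rita. The proteasome median less that of all rows was 0.099 with Nutlin-3 and 0.200 with Rita as reported. It was 0.095 and 0.197 with equal totals, which shift all rows nearly alike and so cannot change it. With quantile normalization it was -0.026 and -0.012. PSMD8 rose in both, by 0.65 ± 0.07 with Nutlin-3 and 0.73 ± 0.07 with Rita. PSMD8 had 10791 to 12712 normalized reads in B87 + DMKG + Nutlin-3, 11554 to 12525 in B87 + DMKG + Rita and 6992 to 8037 in Control. PSMF1 rose by 0.66 ± 0.07 and 0.61 ± 0.07, and PSME1 by 0.62 ± 0.09 and 0.65 ± 0.09, in the same order. The ubiquitin receptor PSMD4 rose by 0.46 ± 0.08 and 0.49 ± 0.08. Besides PSMD12 and PSMB2, PSMA3, PSMC6 and PSMD3 fell with Nutlin-3, by 0.85, 0.76 and 0.72. With Rita the lowest were PSME4 at -0.59 ± 0.08, PSMD1 at -0.46 ± 0.07 and PSMG2 at -0.33 ± 0.09, all of which were also lower in Rita alone.

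The effect of each compound was compared with and without B87 + DMKG by an interaction term. The effect of Nutlin-3 was more positive in the presence of B87 + DMKG for 24 genes and more negative for 7 (26.4% and 30.6% of all rows), and that of Rita for 25 and 2 (24.2% and 24.4%). The Rita split was 20 and 5 with quantile normalization (4249 and 3728 of all rows) and 21 and 5 with equal totals (3370 and 4367). The chaperone PSMG1 showed the largest Nutlin-3 term at 1.56 ± 0.19 (adjusted p = 4.67e-08). Its row spans 106 kb, 11.7 times the GENCODE gene, and may hold reads of neighbours. PSMG1 had 2619, 2477 and 1806 normalized reads in Nutlin-3 alone, 3699 ± 197 (SD, n = 4) in Control, 3637 ± 260 in B87 + DMKG + Nutlin-3 and 2023 ± 348 in B87 + DMKG. Nutlin-3 thus went with a fall in otherwise untreated cells and with a rise on top of the pair. PSMG2 gave 1.43 ± 0.13, PSMB8 1.18 ± 0.17 and PSMD14 1.05 ± 0.11. For Rita the largest terms were those of PSMD12 at 1.24 ± 0.11, PSMA3 at 1.13 ± 0.11, PSMG1 at 1.11 ± 0.18 and PSMG2 at 1.03 ± 0.12. PSMF1 had negative terms with both, -0.48 ± 0.10 with Nutlin-3 and -0.47 ± 0.10 with Rita.

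The proteolytic subunits and their immunoproteasome counterparts did not move as blocks. In B87 + DMKG, PSMB5 (chymotrypsin-like) fell by 0.69 ± 0.09 and PSMB7 (trypsin-like) by 0.49 ± 0.08, while PSMB6 (caspase-like) gave 0.18 ± 0.07. PSMB5 had 14212, 13763, 16776 and 18068 normalized reads in B87 + DMKG, against 24046, 27524, 25235 and 24262 in Control. Of the immunoproteasome genes PSMB8 fell and PSMB9 rose in B87 + DMKG, although they are neighbours in the same gene cluster. PSMB8 had 1067, 1167, 1387 and 1556 normalized reads in B87 + DMKG and 2226, 2433, 2333 and 2302 in Control (log2 fold change -0.86 ± 0.12, adjusted p = 2.17e-07). PSMB9 had 1787, 2075, 1934 and 2041 normalized reads in B87 + DMKG and 1147, 1415, 1241 and 1245 in Control (log2 fold change 0.64 ± 0.10, adjusted p = 4.08e-06). The groups did not overlap for either gene. PSMB10 gave -0.23 ± 0.15 (adjusted p = 0.181).

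Across the other treatments PSMB9 was higher than Control in DMKG (0.31 ± 0.10), Nutlin-3 (0.39 ± 0.11), Rita (0.28 ± 0.10) and both combinations (0.67 ± 0.10 with Nutlin-3, 0.59 ± 0.10 with Rita). The call in DMKG was lost without Control 1 or DMKG 3, that in Nutlin-3 without Nutlin-3 3, and that in Rita without Control 1, Rita 2 or Rita 4. Equal library totals ended the calls in DMKG and Rita too. Adding either compound to B87 + DMKG gave PSMB9 a log2 fold change of 0.04 or -0.05, neither called. PSMB8 fell in Nutlin-3 alone by 0.53 ± 0.12 and rose over B87 + DMKG by 0.65 ± 0.12 with Nutlin-3 and 1.00 ± 0.12 with Rita. PSMB6 rose in Nutlin-3, Rita and both combinations, by 0.43, 0.39, 0.39 and 0.51. PSMB5 stood at 22540 to 26058 normalized reads in B87 + DMKG + Nutlin-3 and 28794 to 30280 in B87 + DMKG + Rita. Its rise over Control with Rita (0.23 ± 0.09, adjusted p = 0.038) was -0.051 with quantile normalization and -0.032 with equal totals.

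**Figure D4:**
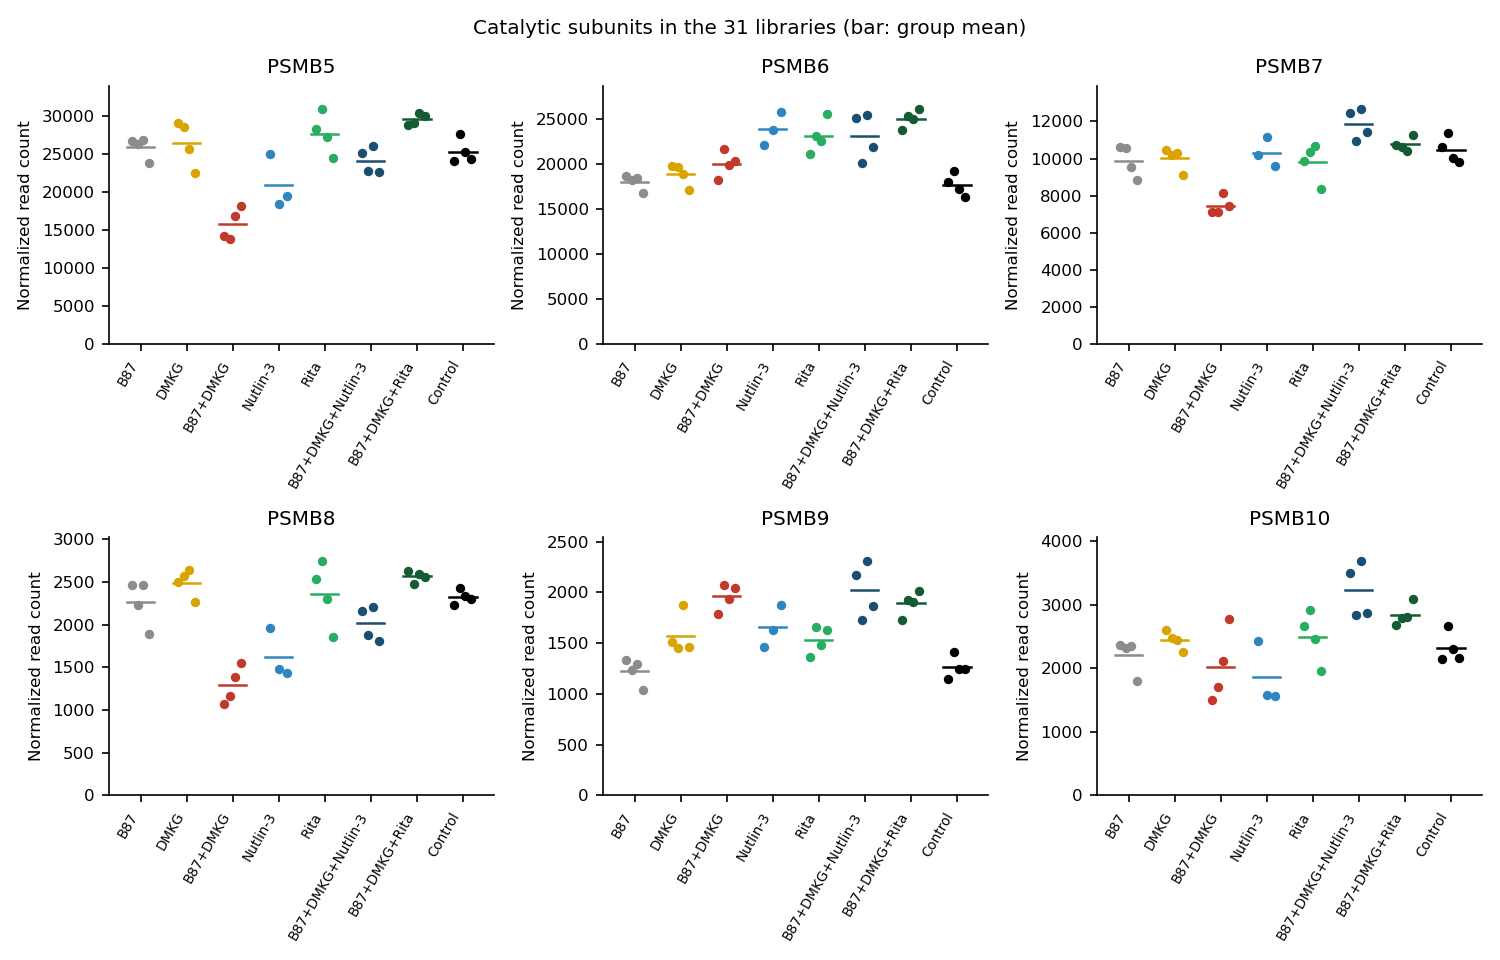
Normalized reads in every library (points) by treatment, with bars at group means, for the constitutive subunits PSMB5, PSMB6 and PSMB7 and the immunoproteasome subunits PSMB8, PSMB9 and PSMB10. In B87 + DMKG, PSMB5, PSMB7 and PSMB8 lie under Control while PSMB9 lies above it.

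Reads were summed over the 44 proteasome genes among the members, which leaves out PSMA1, PSMA2, PSMA6 and PSME2. They made up 0.704% ± 0.019 of the library in B87 + DMKG and 0.842% ± 0.0165 in Control (SD, n = 4 each). The combinations held 0.774% ± 0.0198 with Nutlin-3 and 0.821% ± 0.0063 with Rita (SD, n = 4 each). DMKG alone had 0.785% ± 0.0566, B87 alone 0.851%, Nutlin-3 alone 0.766% ± 0.0249 (n = 3) and Rita alone 0.824% ± 0.0216. The alpha ring sum, of PSMA3, PSMA4, PSMA5, PSMA7 and PSMA8 only, was 0.0603% ± 0.0038 in B87 + DMKG and 0.0941% ± 0.0039 in Control. It was 0.0738% ± 0.0071 in Nutlin-3 alone, 0.0763% ± 0.0024 in B87 + DMKG + Nutlin-3 and 0.0876% ± 0.0021 in B87 + DMKG + Rita. The ATPase ring took 0.157% in B87 + DMKG and 0.160% in Control. These sums were not tested.

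**Figure D5:**
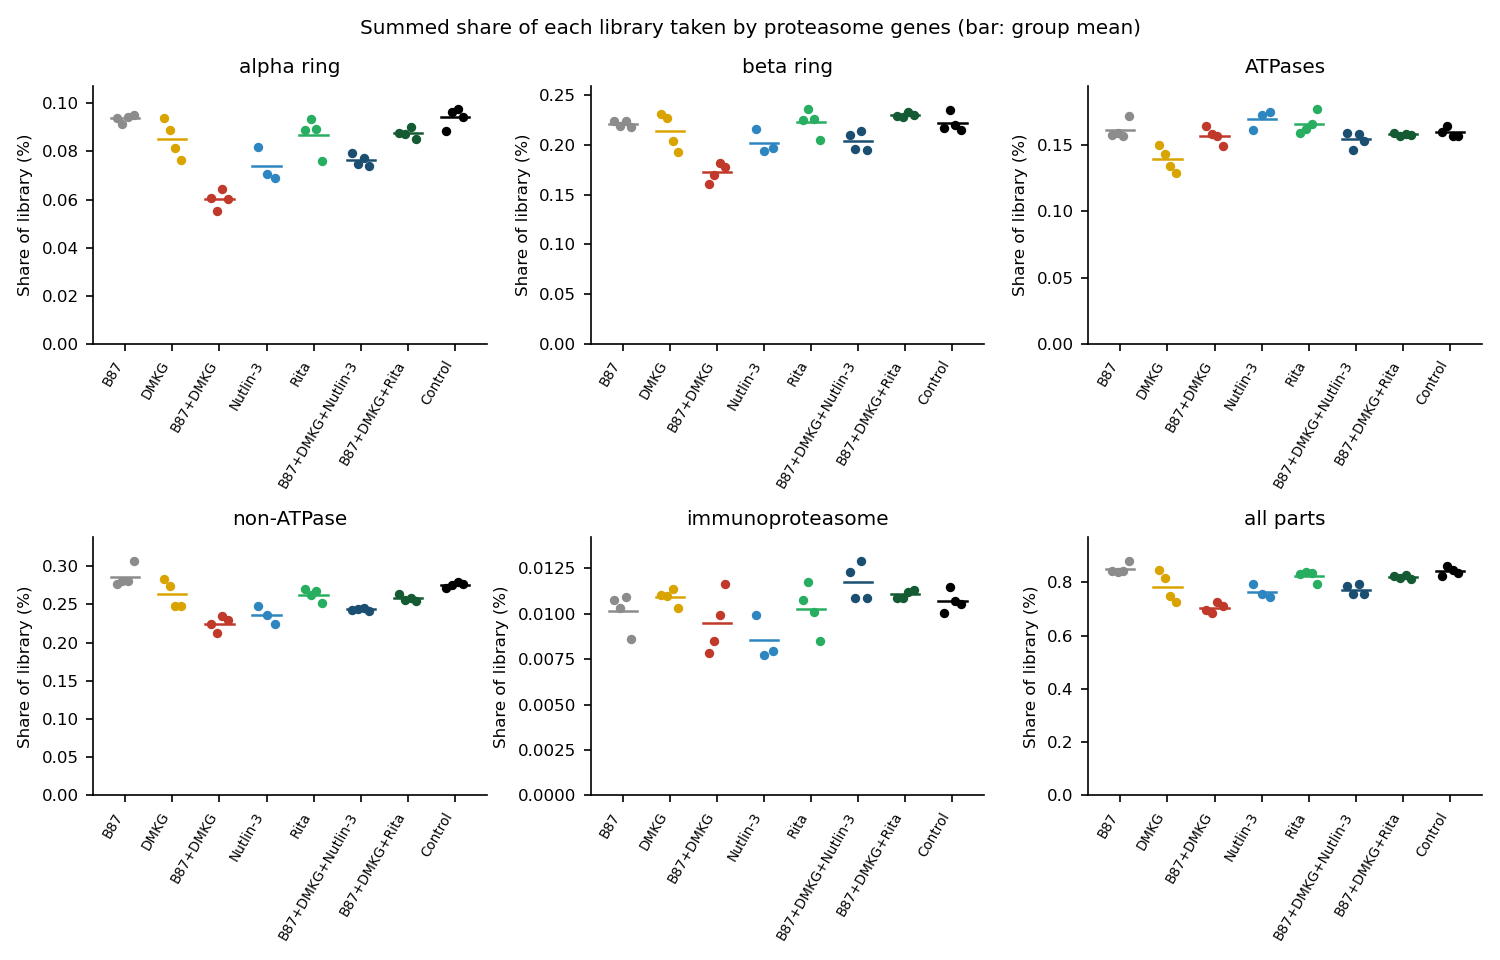
Summed reads of the proteasome gene groups as a percentage of each library (points), by treatment, with bars at group means. The alpha ring sum, of PSMA3, PSMA4, PSMA5, PSMA7 and PSMA8 only, is lowest in B87 + DMKG (0.0603%). The ATPase ring sum averages 0.157% there and 0.160% in Control.

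The median profile of the proteasome genes over the 8 group means was lowest in B87 + DMKG (-0.29 around its own mean) and highest in B87 + DMKG + Rita (0.22). That top rank belongs to the authors' scaling: the median log2 fold change of B87 + DMKG + Rita against Control was 0.21 there, 0.010 with quantile normalization and -0.051 with equal totals. Among 11864 other rows, the profiles most like it were those of GSTM3 (r = 0.994), the combined row IFI30 // PIK3R2 (0.988), ECEL1 (0.984), ECI1 (0.983) and EPHA8 (0.982), over 8 groups that share a scaling. The members themselves ran from r = 0.981 for PSMA7 to -0.59 for PSME3, a nuclear activator. Proteasome genes thus did not all share the median pattern.

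The 5 members that are no proteasome genes moved on their own. PSMD5-AS1 fell in DMKG by 1.69 ± 0.14 (adjusted p = 3.88e-11) and rose in Nutlin-3 by 0.66 ± 0.15, where PSMD5 itself passed in neither. PSMD6-AS2 had 73.8, 65.0, 155 and 287 normalized reads in DMKG, against 33.1, 36.2, 28.6 and 20.8 in Control (log2 fold change 2.02 ± 0.37). It rose by 2.20 ± 0.37 in B87 + DMKG, where PSMD6 fell by 0.54 ± 0.06. PSMB8-AS1 was lowest in B87 + DMKG + Rita (-0.96 ± 0.18 against Control). PSMC3IP, a factor of meiotic recombination, fell by 0.58 ± 0.08 in DMKG and rose by 0.40 ± 0.08 in Rita. PSMG3-AS1 rose by 0.97 ± 0.22 in Rita and fell by 0.81 ± 0.22 in B87 + DMKG + Nutlin-3. The rows of PSMB8 and PSMB8-AS1, and of PSMD6 and PSMD6-AS2, overlap, and the sources used here do not say whether reads were counted by strand, so reads of partners may not be told apart. The row spans of PSMG1 (106 kb), PSMD4 (114 kb) and PSMB2 (72 kb) exceed 1.5 times those of the GENCODE genes, so they may hold reads of neighbours.

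PSMA1, PSMA2 and PSME2 stand in rows combined with a neighbour and are no members. COPB1 // PSMA1 fell in B87 + DMKG by 0.64 and C7orf25 // PSMA2 by 0.53, and both rose with either added compound, by 0.46 to 0.61. MIR7703 // PSME2 gave 0.00 in B87 + DMKG and rose by 0.46 in Rita, 0.52 in B87 + DMKG + Nutlin-3 and 0.64 in B87 + DMKG + Rita. PSMA6 was not analysed here.

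Of 8 genes whose products work with the proteasome, 1 was higher and 3 lower in B87 + DMKG, where 30.2% of all rows were higher and 30.8% lower. USP14, a deubiquitinase on the regulatory particle, fell by 1.09 ± 0.09 in B87 + DMKG and by 0.80 ± 0.09 in Nutlin-3 alone. AKIRIN2, which brings proteasomes into the nucleus, fell by 0.56 ± 0.09 in B87 + DMKG and by 1.19 ± 0.09 in B87 + DMKG + Nutlin-3, against no call in B87 + DMKG + Rita. UCHL5, another deubiquitinase of the regulatory particle, fell in every treatment other than B87, by 0.23 to 0.70. The ubiquitin receptor ADRM1 rose in Rita by 0.46 ± 0.09 and in both combinations by 0.48 and 0.59. POMP, the core maturation factor, was called in none of the 13 comparisons.

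Among 4 tested regulators, NFE2L1 rose in DMKG (0.47 ± 0.07), Nutlin-3 (0.59 ± 0.07), Rita (0.73 ± 0.07) and both combinations (0.29 ± 0.07 with Nutlin-3, 0.48 ± 0.07 with Rita). It passed in neither B87 nor B87 + DMKG. NGLY1, the glycanase that activates it, rose in DMKG by 1.08 ± 0.08. Of 15 ubiquitin and shuttle genes, 6 rose and 2 fell in DMKG (19.6% of all rows higher, 21.8% lower), 3 rose and 6 fell in B87 + DMKG (30.2% and 30.8%), and 10 rose and 3 fell in B87 + DMKG + Nutlin-3 (28.3% and 29.7%). VCP, the segregase that feeds the proteasome, fell by 1.02 ± 0.08 in B87 + DMKG and 0.93 ± 0.08 in B87 + DMKG + Nutlin-3. Its cofactor NPLOC4 fell by 1.14 ± 0.06 in B87 + DMKG + Nutlin-3 and by 0.33 ± 0.06 in B87 + DMKG + Rita. Of 8 antigen presentation genes, 5 rose and 1 fell in DMKG, 2 rose and 3 fell in B87 + DMKG, and 4 rose and none fell in B87 + DMKG + Nutlin-3, to be read against the same shares of all rows.

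Fold changes in the Rita groups were lower for longer rows of the table. Spearman's rho of log2 fold change with row span was -0.54 in Rita and -0.53 in B87 + DMKG + Rita over the 42 proteasome genes. Over all 16259 rows it was -0.40 and -0.31. Other treatments gave -0.361 in DMKG (0.047 over all rows), -0.295 in B87 + DMKG + Nutlin-3 (-0.147) and -0.231 in B87 + DMKG (-0.161). Nutlin-3 gave -0.101 (-0.058) and B87 0.277 (0.055). PSME4 and PSMD1, lower in both groups, have rows of 107 and 116 kb. PSMD4, with a row of 114 kb that is 8.92 times the GENCODE gene, rose by 0.37 in Rita and 0.49 in B87 + DMKG + Rita. The part of span in these changes was not tested.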

How the data were processed

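The 31 libraries, from 8 treatment groups of H460 cells, were made from poly(A) RNA with a stranded mRNA kit, per the labels. The table holds read counts normalized by the authors for library size, per the labels. It was treated as a normalized signal, since the deposited values are not whole. In each library all values were whole multiples, within 0.1 steps, of what 1 read was worth (largest distance 0.00111 steps), so reads were recovered for count tests. The submitters' processing notes name STAR 2.4.0, DESeq2, FastQC, Picard, SAMtools and the build mm10, while the file header names hg19. Whether reads were counted by strand is not given in the sources used here.

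Values were tested as log2(value + 1) with limma 3.58.1 (R 4.3.3), with a trend in the variance, all 31 libraries in one fit and a mean of at least 10 required. Benjamini-Hochberg adjustment ran over 16259 rows, and adjusted p under 0.05 was a call. The scripts were tested on simulated data. The alternatives were other pseudocounts, filters and scalings, a minimum log2 fold change of 0.5, edgeR 4.0.16 and DESeq2 1.42.0 on recovered reads, only the groups compared, a replicate block and leaving out libraries. The comparison of the 2 combinations with each other was added after the data were seen.

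The members and gene lists were chosen with earlier results of these data known. Text names, per comparison, the 5 largest rises and falls among calls, the proteolytic and immunoproteasome subunits, some members fixed per role, and extremes of a range. Promoters came from RefSeq (GRCh38.p14) and exon lengths from GENCODE, matched by symbol. Intervals of counting are small at these depths, and the spread between libraries sets the error.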

Additional observations from a re-analysis of the deposited data

Results flagged for a closer look

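Of 147 groups of 4 libraries tested, 10 held a library far from the other 3 (by the ratio of its gap to the range, Dixon test at 95%, which chance gives in about 1 group in 20). Library 4 of B87 stood apart for 4 genes, with 23716 normalized reads of PSMB5, 1799.9 of PSMB10, 4995.1 of PSMD10 and 4937.8 of PSMG1. Library 4 of Rita did so for PSMD10 (3708.6) and PSMG1 (2158.8). The others were PSMB9 in DMKG library 3 (1876.9), PSME1 in B87 + DMKG library 4 (8694.6), PSME3 in B87 + DMKG + Nutlin-3 library 2 (7706.8) and PSMF1 in Control library 2 (6976.3).

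For 11 genes Nutlin-3 was called in opposite directions with and without B87 + DMKG, and the interaction term of the limma fit was called too. The share of all rows that meet this rule was not counted for either compound. Whether it is more frequent among proteasome genes is therefore not known. The term is the difference of the effects with and without the pair, and rests on the same libraries. The term was 0.86 for PSMA4 (0.51 with and -0.35 without), 0.88 for PSMA7 (0.64 and -0.25), 0.91 for PSMB5 (0.62 and -0.28), 1.18 for PSMB8 (0.65 and -0.53) and 1.05 for PSMD14 (0.66 and -0.39). It was 0.59 for PSMD2 (0.28 and -0.31), 0.76 for PSMD6 (0.47 and -0.29), 0.83 for PSMD10 (0.59 and -0.24), 1.56 for PSMG1 (0.86 and -0.70) and 1.43 for PSMG2 (0.73 and -0.69). PSMC2 alone went the other way, with -0.69 (-0.28 and 0.41).

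For 5 genes Rita did so: the term was 1.24 for PSMD12 (1.02 with and -0.22 without), 0.81 for PSMD14 (0.50 and -0.31), 0.72 for PSMD6 (0.48 and -0.24), 1.11 for PSMG1 (0.74 and -0.38) and 1.03 for PSMG2 (0.51 and -0.52). The single effects of PSMA7, PSMB5 and PSMD10 in Nutlin-3, of PSMD12 and PSMG1 in Rita, and of PSMC2 with Nutlin-3 added to B87 + DMKG, lost their call when single libraries were left out.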

How the results depend on the processing

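Over all alternatives, 5931 of 6259 recomputed gene values kept their side of the threshold and, where called, their direction. A change of direction in values called in neither fit was not counted. Of the others, 255 lost the call, 68 gained one and 5 reversed. Of 273 counts, 15 moved by over 1.5 times. The count for DMKG (9 in the fit reported) was 14 with equal library totals and 5 without DMKG libraries 3 and 4, and it ran from 4 to 10 when single libraries were left out. A minimum log2 fold change of 0.5 left 1 gene for DMKG, 15 for B87 + DMKG, 4 for Nutlin-3, 3 for Rita, 9 for B87 + DMKG + Nutlin-3 and 6 for B87 + DMKG + Rita against Control. It left 15 with Nutlin-3 and 22 with Rita against B87 + DMKG, 16 terms beyond the sum and 15 Rita terms. Between the combinations it left 6, where quantile normalization called 13. The share of all rows passing this minimum was not computed, so these counts cannot be set against it. Reversed values were PSMB5 in B87 + DMKG + Rita against Control (-0.051 with quantile normalization, -0.032 with equal totals), PSMB7 there (-0.21 with equal totals) and PSMD11 in B87 + DMKG + Rita against B87 + DMKG (-0.12 and -0.16). With equal totals the median log2 fold change of all rows lay between -0.25 and 0.13 over the comparisons. Equal totals shift all rows of a comparison nearly alike, so they cannot change the proteasome median less that of all rows. That difference was -0.278 for B87 + DMKG (-0.277 as reported) and 0.501 for Rita added to it (0.503). With quantile normalization it was -0.212 and 0.255, and for Nutlin-3 added to the pair 0.223 (0.454 as reported). Counts without single libraries ran from 28 to 33 for B87 + DMKG, 15 to 22 for Nutlin-3, 21 to 26 for Rita, 30 to 33 for Nutlin-3 and 32 to 34 for Rita added to B87 + DMKG. Same-numbered libraries did not deviate together (median r -0.0033 over 105 pairs, 20 best with their own number). With a replicate block the count was 21 for Nutlin-3, 27 for B87 + DMKG + Rita against Control, 30 beyond the sum, 30 Nutlin-3 terms, 26 Rita terms and 21 between the combinations, and other counts were as reported. The cause of these shifts was not tested.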
